A study of Mus musculus with 48 samples.

Results

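The 10 genes described here encode regulators of RNA transport and local translation, and they were listed by name, by a rule that uses no measured value but was written with earlier results of these data known. They are Fmr1 and its paralogs Fxr1 and Fxr2, the FMRP partners Cyfip1 and Cyfip2, the CPEB family members Cpeb1, Cpeb3 and Cpeb4, and the Staufen genes Stau1 and Stau2. All 10 were found among the 48526 genes of the deposited count table, and all 10 passed the filter on low counts in every comparison. The animals were untreated wild-type male C57BL/6JRj mice, 12 in all, with 4 mice at each of 3 ages, given here as 3w (3 weeks), 5m (5 months in the protocol, 6 months in the sample label) and 18m (18 months). The cortex of each mouse gave 4 RNA-seq libraries, 48 in all. SYN libraries were made from synaptosomes, a sucrose-gradient fraction enriched in pinched-off nerve terminals with the attached postsynaptic material, and TH libraries from the total homogenate of the same cortex. From both, RNA was sequenced before (input) and after pelleting through a sucrose cushion (SC), which collects ribosomes with the mRNA bound to them, from lysates made with cycloheximide, a blocker of translation elongation. The pellet can also hold other dense particles, so a value in SC is called ribosome-associated and not translated.

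As background, neurons place mRNAs far from the soma in granules that keep them silent during transport and let them be translated near synapses. FMRP, the product of Fmr1 whose loss causes fragile X syndrome, and its paralogs FXR1 and FXR2 bind mRNAs and polyribosomes. CYFIP1 and CYFIP2 link FMRP to the cap-binding protein eIF4E and, in a separate complex, belong to the WAVE regulator of actin. CPEB proteins bind U-rich elements near the end of 3′UTRs and control poly(A) tail length and translation, while Staufen proteins bind double-stranded RNA in transport granules.

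Total counts ranged from 1780267 to 18590040 per library, with medians of 10815834 in input TH, 3756951 in input SYN, 8643431 in SC TH and 7298371 in SC SYN. Values are given as CPM, a gene's count relative to the total of its library, scaled by TMM, a factor that sets the bulk of genes to equal levels between libraries. SYN and TH differ in many genes, and TMM placed the median gene 0.53 to 0.65 log2 units higher in SYN against TH than library size alone did, so changes in that comparison are relative to this scaling. Markers of other cells moved with the fraction: the summed level of 7 astrocyte genes was 15840 to 19020 CPM in SC SYN against 5728 to 7030 CPM in SC TH, and 13230 to 16700 CPM in input SYN against 3672 to 5100 CPM in input TH. For 7 microglial genes the sums were 544.6 to 1169 CPM in SC SYN against 243.6 to 363.6 CPM in SC TH, and for 8 neuronal genes 7720 to 10150 against 5089 to 6298 CPM. Most of the neuronal genes went against their sum. In SC at 5m 2 of the 8 were higher in SYN and 6 lower (adjusted p under 0.05 in edgeR), with a median log2 difference of -0.59. Of all genes 32.1% were higher and 35.8% lower there, with a median of -0.09. The sum of 5 nuclear-retained RNAs was 842 to 3493 CPM in SC SYN and 5238 to 13620 CPM in SC TH, and no gene of these lists was at 0 in any fraction. The part of these cells and of nuclear RNA in the results below was not tested. In such bulk libraries fewer cells of a type and less RNA per cell cannot be told apart.

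The elements that CPEB proteins bind were looked for in the members themselves, because 3 of them are CPEB genes. The letters TTTTAT and TTTTAAT were searched on the sense strand in the last 150 bases of the transcript with the longest 3′UTR of each gene (GENCODE M21, GRCm38). They were found in 2 of the 10 members, Fmr1 and Cyfip1, against 23.3% of 19052 genes (18.4% for TTTTAT and 6.6% for TTTTAAT, which do not overlap each other as words). Both sites are shown as 30 bases on the plus strand with the element in capitals, from chrX:68717917-68717946 in the 3′UTR of Fmr1 and chr7:55932573-55932602 in the 3′UTR of Cyfip1.
Fmr1: ctagatgtaaatTTTTATtaaaaagttgca
Cyfip1: tcacaaatgtacaTTTTAATgttcatcacc
The Fmr1 element began 35 bases and the Cyfip1 element 17 bases before the annotated transcript end. These matches are letters in one annotated window, and other 3′ ends were not searched. The polyadenylation hexamer AATAAA was absent from the last 40 bases of both transcripts, while 59.7% of the 19052 genes held it there. Among the members Fxr2, Cpeb1, Cpeb3 and Cpeb4 held it.

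**Figure D1:**
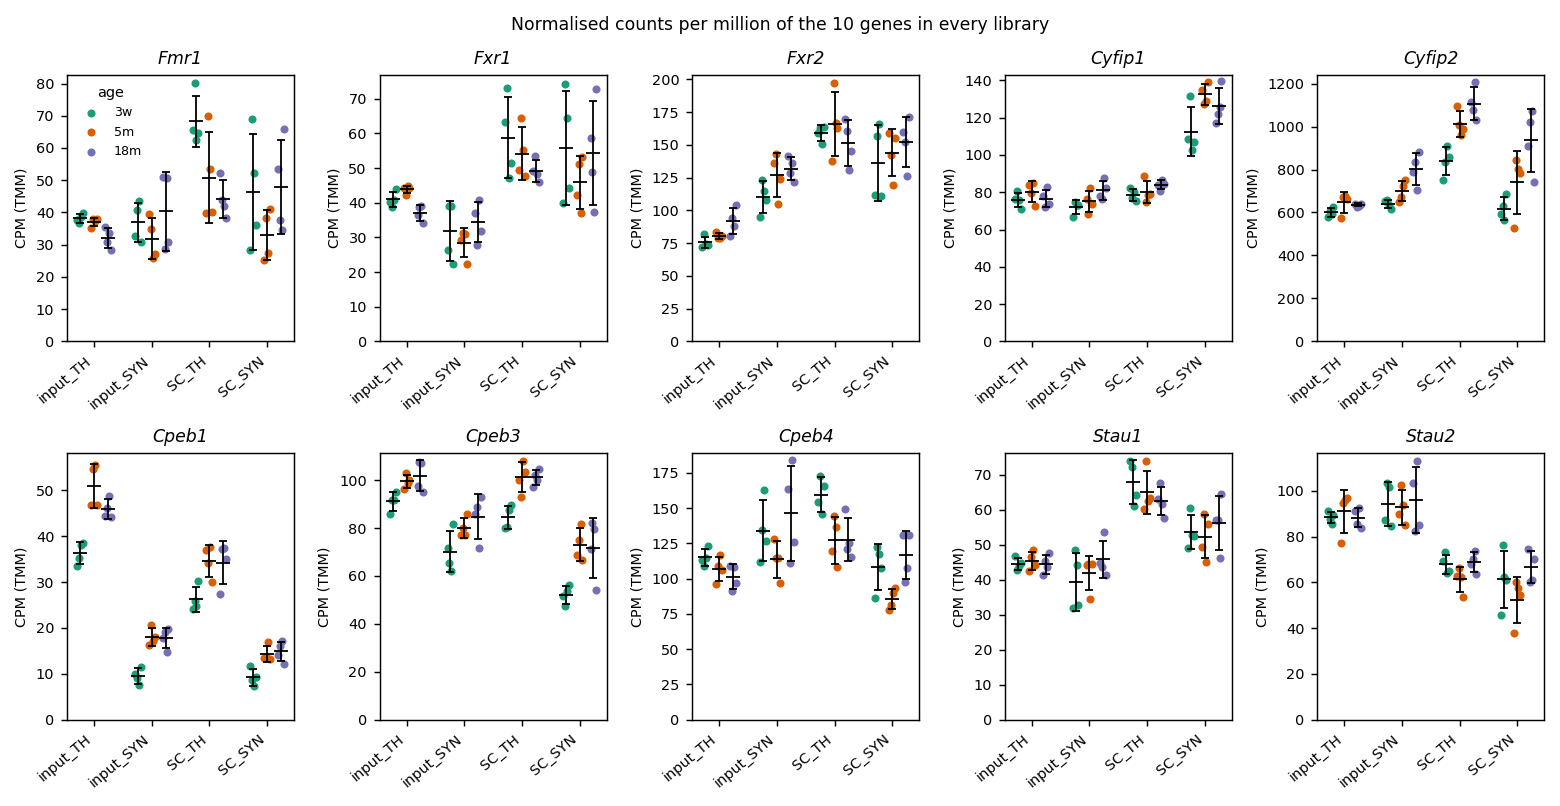
Levels of the 10 members in all 48 libraries (CPM, TMM-scaled, a panel per gene with its own linear axis), by fraction and age, with a point per mouse and the mean and SD of 4 mice. Cyfip2 lies above the other members in every fraction, and Cpeb1 is lower in both SYN fractions than in both TH fractions at each age.

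Per kilobase of exon, Cyfip2 had the highest level of the 10 members at 5m in all 4 fractions, from 91.1 ± 6.90 CPM per kb (SD, n = 4) in input TH to 142.6 ± 8.35 in SC TH. Next came Fxr2, at 21.4 ± 0.566 CPM per kb in input TH and 44.1 ± 6.52 in SC TH, and next Cpeb4, at 16.8 ± 1.33 and 20.0 ± 2.57 CPM per kb. These 3 did not overlap with each other in any fraction at that age. Below them the order differed between fractions. Cpeb1 was at rank 6 in input TH (12.2 ± 1.14 CPM per kb) and last in SC SYN (3.42 ± 0.405), where its libraries overlapped those of Fmr1 (3.68 ± 0.873). Cyfip1 was at rank 8 in input TH (6.73 ± 0.462 CPM per kb) and at rank 4 in SC SYN (11.1 ± 0.463), overlapping there with Cpeb3 (9.86 ± 0.919). Fmr1, the best known of the group, was last in the other 3 fractions, with 4.13 ± 0.148 CPM per kb in input TH. The length used was that of all annotated exons of a gene merged, 8966 bases for Fmr1, 6747 for Stau2 and 6369 for Cpeb4. Their transcripts with the longest 3′UTR have 4409, 3901 and 6303 bases, so the order of members can change with the length used.

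The first comparison asks in which compartment the ribosome-associated mRNA of each regulator was found, SC SYN against SC TH. Cpeb1 and Cpeb3 were lower in SYN at all 3 ages, Cyfip1 was higher in SYN at all 3 ages under TMM (not under library size alone), and the rest were lower or not called. At 3w 6 members were called (1 higher, 5 lower), at 5m 7 (1 higher, 6 lower) and at 18m 3 (1 higher, 2 lower), where a gene is called when its p, adjusted over all genes in the quasi-likelihood test of edgeR, is under 0.05. By the same rule 63.5%, 67.8% and 62.1% of all genes were called at the 3 ages, so being called was common. Of all genes 31.1%, 32.1% and 29.9% were higher and 32.4%, 35.8% and 32.2% lower in SYN at 3w, 5m and 18m. The median log2 difference of the members was -0.34, -0.36 and -0.06, against -0.04, -0.09 and -0.07 over all genes tested. In the input libraries 4 members were called at 3w, 4 at 5m and 5 at 18m, where 71.0%, 72.7% and 72.3% of all genes were called.

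Cpeb1, the founding member of the CPEB family, had the largest difference of the 10. At 3w its SC SYN libraries held 11.67, 8.63, 7.32 and 9.28 CPM and its SC TH libraries 24.0, 25.8, 24.8 and 30.3 CPM. At 5m the SC SYN values were 13.5, 13.7, 16.9 and 13.2 CPM against 36.9, 34.2, 37.7 and 29.9 CPM in SC TH. At 18m they were 14.1, 16.0, 17.2 and 12.2 CPM against 27.5, 37.2, 37.4 and 34.9 CPM. No SYN library reached any TH library at any age. The log2 difference was -1.44 ± 0.154 (SE) at 3w, -1.25 ± 0.135 at 5m and -1.15 ± 0.134 at 18m, or 2.72-, 2.39- and 2.22-fold lower (adjusted p = 1.05e-08, 1.22e-08 and 6.99e-08). In the input libraries Cpeb1 differed in the same direction. Input TH held 33.5, 35.4, 38.2 and 38.5 CPM at 3w and input SYN 10.05, 9.06, 7.58 and 11.6 CPM. At 5m input TH held 46.8, 54.7, 55.5 and 46.8 CPM against 16.2, 20.7, 17.1 and 18.0 CPM in input SYN. The SYN libraries again lay below the TH libraries in every mouse, with 3.79-, 2.83- and 2.51-fold lower levels at 3w, 5m and 18m (adjusted p = 1.55e-13, 1.08e-12 and 2.05e-12). The raw counts behind the lowest Cpeb1 values were small, 12 to 36 per input SYN library at 3w.

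Cpeb3 and Cpeb4, which with Cpeb2 form the second branch of the family, stood closer between compartments. In SC at 3w Cpeb3 had 51.7, 47.3, 53.5 and 56.2 CPM in SYN and 80.1, 80.6, 87.7 and 89.5 CPM in TH, without overlap. Its log2 difference in SC was -0.64 ± 0.107 at 3w, -0.45 ± 0.103 at 5m and -0.46 ± 0.102 at 18m (adjusted p = 1.1e-05, 0.00046 and 0.000451). In the input it was -0.38 ± 0.087, -0.31 ± 0.085 and -0.25 ± 0.081 (adjusted p = 0.000353, 0.00214 and 0.00815), and no group pair overlapped at any age. The 18m input call ended without mouse 197, at -0.16. Cpeb4 in SC was lower in SYN, with log2 differences of -0.51 ± 0.118 at 3w and -0.54 ± 0.116 at 5m (adjusted p = 0.000537 and 0.00022), and its 18m value was -0.10 ± 0.116 (adjusted p = 0.475). In the input at 18m Cpeb4 was instead higher in SYN, with 163.9, 111.3, 183.9 and 125.8 CPM against 109.2, 91.05, 108.1 and 97.3 CPM in TH, a log2 difference of 0.52 ± 0.121 (adjusted p = 0.000381), or -0.05 under library size alone. The SC direction of Cpeb4 turned when the trend with GC content and length was taken out, to 0.25, 0.19 and 0.23 at the 3 ages. Cpeb2, which is not among the 10, was lower in SC SYN at 3w (-0.48 ± 0.105, adjusted p = 0.000317) and gave -0.21 ± 0.102 at 5m and 0.03 ± 0.101 at 18m (adjusted p = 0.0755 and 0.783).

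The CYFIP genes, whose proteins are close paralogs, were called in opposite directions in SC at 3w and 5m under TMM. Cyfip1 had 108.4, 131.7, 102.5 and 107.0 CPM in SC SYN at 3w and 82.1, 76.8, 80.1 and 75.2 CPM in SC TH. At 5m the values were 134.7, 127.1, 129.0 and 139.2 CPM against 88.7, 74.9, 78.3 and 79.0 CPM. At 18m they were 117.3, 122.1, 125.6 and 139.5 CPM against 83.9, 80.9, 86.7 and 84.6 CPM. Every SC SYN library was above every SC TH library of its age. The log2 difference was 0.57 ± 0.087, 0.74 ± 0.085 and 0.62 ± 0.085 (1.48-, 1.68- and 1.53-fold, adjusted p = 3.79e-06, 3.54e-08 and 1.04e-06). Scaled by library size alone it was 0.02, 0.16 and 0.09 and was not called, so its height over TH depends on the scaling. Cyfip1 shares 1316 exonic bases with Nipa2 on the other strand, and the counting ignored strand, so reads in these bases could not be assigned by strand to either gene. In the input Cyfip1 overlapped between compartments at all 3 ages (-0.08 ± 0.081, -0.09 ± 0.080 and 0.08 ± 0.076, adjusted p = 0.403, 0.312 and 0.331).

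Cyfip2 was lower in SC SYN at 3w, with 590.8, 632.4, 563.1 and 683.8 CPM against 753.2, 832.9, 910.4 and 857.8 CPM in SC TH. The log2 difference was -0.39 ± 0.120 at 3w and -0.43 ± 0.120 at 5m (adjusted p = 0.00662 and 0.0026), and -0.21 ± 0.119 at 18m (adjusted p = 0.126). The 3w call ended without mouse 189 (-0.29) and the 5m call without mouse 191, whose SC SYN library was the lowest of its group at 526 CPM (-0.26 without it). In the input Cyfip2 was higher in SYN at 18m, with 787.4, 835.9, 703.2 and 880.3 CPM against 640.3, 627.7, 632.2 and 641.6 CPM (0.34 ± 0.072, adjusted p = 0.000126). Under library size alone that value was -0.23, the opposite direction.

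**Figure D2:**
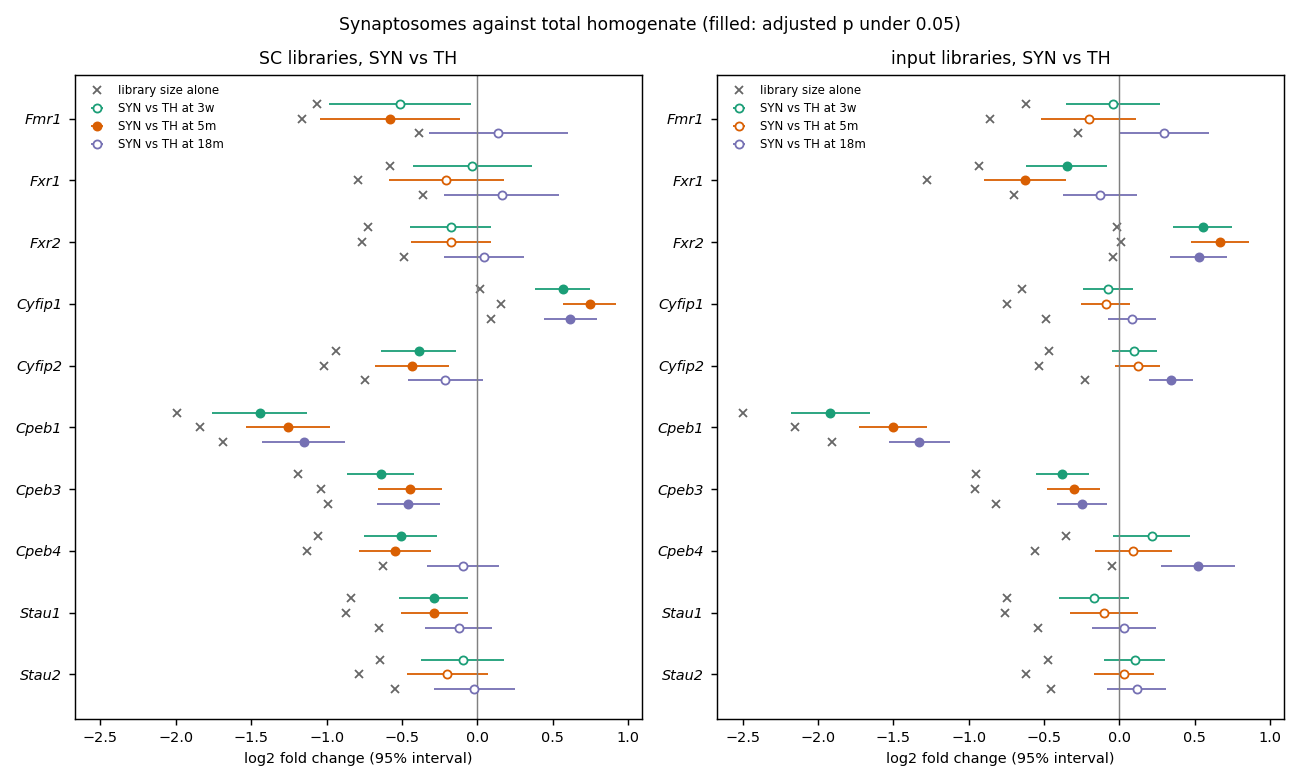
Log2 fold change of SYN over TH for each member in SC and in input libraries at 3w, 5m and 18m, with 95% intervals; filled points have an adjusted p under 0.05 and crosses show the value under library size alone. Cpeb1 lies farthest below 0 in all 6 comparisons, and the crosses of Cyfip1 in SC and Fxr2 in input lie near 0.

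Of the FMRP family, Fxr2 was higher in input SYN under TMM and not under library size alone. Its input SYN libraries held 94.9, 123.5, 115.0 and 107.8 CPM at 3w against 72.1, 82.0, 74.5 and 73.5 CPM in input TH. At 5m the values were 136.3, 143.1, 105.0 and 123.6 CPM against 83.4, 78.7, 79.2 and 80.7 CPM, again without overlap. The log2 difference was 0.55 ± 0.096, 0.67 ± 0.094 and 0.53 ± 0.092 at 3w, 5m and 18m (adjusted p = 1.19e-05, 4.69e-07 and 1.11e-05). Under library size alone it was -0.02, 0.01 and -0.04, while Fxr1 was at -0.93, -1.28 and -0.70 there, so the order within the family depends on the scaling. In SC Fxr2 overlapped between SYN and TH at every age (-0.18 ± 0.131, -0.18 ± 0.129 and 0.04 ± 0.129, adjusted p = 0.243, 0.229 and 0.79). It was called lower in SC SYN at 3w and 5m under library size alone (-0.73 and -0.77), with the GC and length trend taken out (-0.49 and -0.62) and with at least 10 counts required in every library (-0.31 and -0.29), and at 18m library size alone gave -0.49.

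Fxr1 was lower in input SYN at 3w (-0.35 ± 0.132, adjusted p = 0.0192) and at 5m (-0.63 ± 0.132, adjusted p = 0.000134). At 5m its input SYN libraries held 29.3, 31.3, 31.0 and 22.4 CPM and its input TH libraries 44.2, 42.3, 44.8 and 44.1 CPM, without overlap, while the 3w groups overlapped and the 3w call ended without mouse 187 or mouse 190 (smallest value -0.22). With the trend on GC content and length taken out, both values turned, to 0.65 and 0.46. In SC Fxr1 was at -0.03 ± 0.191, -0.21 ± 0.186 and 0.16 ± 0.185 (adjusted p = 0.896, 0.331 and 0.452), and at 0.71, 0.51 and 0.47, called at each age, with the trend taken out. Fmr1 was called in SC at 5m, with 25.4, 38.4, 27.3 and 41.0 CPM in SYN against 39.9, 69.9, 53.4 and 40.1 CPM in TH (-0.58 ± 0.226, adjusted p = 0.0268). Those groups overlapped, 1 of 4 mice went the other way, the call ended without mouse 191, 192 or 193 (smallest value -0.46), and the value was 0.15 with the GC and length trend taken out. At 3w Fmr1 in SC was at -0.51 ± 0.230 (adjusted p = 0.0547), which was called with mouse as a block (-0.56, adjusted p = 0.0177) and in DESeq2 (-0.57, adjusted p = 0.0313) and was 0.25 with the trend taken out, and at 18m it was at 0.14 ± 0.224 (adjusted p = 0.603). In the input Fmr1 was at -0.04 ± 0.154, -0.21 ± 0.155 and 0.30 ± 0.143 (adjusted p = 0.81, 0.235 and 0.0621), the last called with mouse as a block (0.29, adjusted p = 0.0411), and at 0.95, 0.88 and 0.96 with the trend taken out. Fmr1, Fxr1 and Cpeb4 have the lowest GC content of the members, 39.2%, 39.4% and 39.3% in the longest transcript, against 58.5% for Fxr2, and these 3 are the members whose called SYN against TH values turned with that trend.

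Of the Staufen genes, Stau1 was called between compartments in SC and Stau2 was not under TMM. Stau1 was lower in SC SYN at 3w (-0.29 ± 0.112, adjusted p = 0.0269) and 5m (-0.28 ± 0.109, adjusted p = 0.0239). Its SC values at 3w were 49.0, 60.4, 52.7 and 52.5 CPM in SYN against 74.1, 72.2, 61.2 and 64.1 CPM in TH, without overlap. The 3w call ended without mouse 187 (-0.21) and the 5m call without mouse 193 (-0.23). Stau2, which in the brain is concentrated in neurons, was not called between SYN and TH in SC or input at any age under TMM, with log2 differences from -0.20 to 0.11. Its SC values were -0.65, -0.79 and -0.55 under library size alone, called lower at each age, at least 10 counts in every library gave -0.31 at 5m (adjusted p = 0.0326), and with the GC and length trend taken out it was higher in SC SYN at 3w (0.23, adjusted p = 0.0282).

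The second comparison sets the ribosome-associated RNA against the input of the same compartment, a relative measure of how much of each mRNA pellets with ribosomes. Here the scaling mattered little, moving the median gene by under 0.1 log2 units. In TH 8 members were called at 3w (6 higher in SC, 2 lower), 8 at 5m (6 and 2) and 9 at 18m (7 and 2), where 52.8%, 62.1% and 64.0% of all genes were called (26.1%, 29.9% and 31.3% higher, 26.6%, 32.2% and 32.7% lower). In SYN 5 members were called at 3w (3 higher, 2 lower), 3 at 5m (2 and 1) and 3 at 18m (2 and 1), where 18.5%, 20.0% and 12.6% of all genes were called (9.04%, 9.66% and 5.88% higher, 9.50%, 10.3% and 6.70% lower). The members' median log2 difference in TH was 0.49, 0.27 and 0.38, against -0.05, -0.05 and -0.01 over all genes.

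Cyfip1 was higher in SC than in input within SYN at all ages. Its input SYN libraries held 66.7, 75.0, 73.3 and 73.2 CPM at 3w, 76.2, 68.6, 82.1 and 73.5 CPM at 5m and 78.2, 76.3, 87.9 and 82.2 CPM at 18m, below every SC SYN value given above for the same age. The log2 difference was 0.62 ± 0.099, 0.79 ± 0.098 and 0.64 ± 0.096 (1.54-, 1.73- and 1.56-fold, adjusted p = 0.000129, 3.43e-06 and 7.83e-05), higher in 4 of 4 mice at each age. In TH the same gene gave 0.06 ± 0.067, 0.005 ± 0.065 and 0.15 ± 0.064 (adjusted p = 0.438, 0.955 and 0.0463). The 18m TH call was also lost in DESeq2 (0.13, adjusted p = 0.061), under library size alone (0.09, adjusted p = 0.234) and without mouse 187, 195, 196 or 198, and the value was -0.01 in libraries thinned to one depth. Whether an SC over input difference itself differed between SYN and TH was not tested for any member. Cyfip2 was called in TH and not in SYN. In TH its SC libraries held 1097, 1006, 960 and 988 CPM at 5m against 574, 673.7, 676.9 and 663.5 CPM in the input, with log2 differences of 0.50 ± 0.067, 0.65 ± 0.067 and 0.82 ± 0.067 at the 3 ages (adjusted p = 5.47e-07, 4.1e-09 and 4.81e-11). In SYN its values were -0.07 ± 0.119, 0.05 ± 0.118 and 0.22 ± 0.118 (adjusted p = 0.72, 0.803 and 0.24).

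Fxr2 was higher in SC than in input within TH at all 3 ages. At 3w it held 159.1, 163.0, 150.5 and 163.5 CPM in SC TH against the 72.1 to 82.0 CPM of input TH. The log2 difference was 1.09 ± 0.090 at 3w, 1.04 ± 0.088 at 5m and 0.74 ± 0.087 at 18m (2.13-, 2.06- and 1.67-fold, adjusted p = 1.05e-10, 1.15e-10 and 3.79e-08). In SYN the groups overlapped at all 3 ages (log2 differences of 0.28 ± 0.143, 0.15 ± 0.141 and 0.21 ± 0.139, adjusted p = 0.179, 0.479 and 0.379). Fxr1 was higher in SC in both compartments. In TH its log2 differences were 0.53 ± 0.100, 0.30 ± 0.096 and 0.42 ± 0.096, and in SYN 0.78 ± 0.226, 0.67 ± 0.225 and 0.66 ± 0.215 (adjusted p = 0.0169, 0.0368 and 0.0414). The 3w SYN call ended without mouse 188 or 189, the 5m call without 191, 192 or 194 (lowest 0.49) and the 18m call without 191, 192, 195, 196 or 198 (lowest 0.44). In TH the adjusted p was 6.44e-05, 0.00859 and 0.000398. The 5m TH call ended in 5 of 24 alternatives (lowest value 0.20, highest adjusted p = 0.106), among them without mouse 192 (0.21). Fmr1 was higher in SC TH than in input TH, by 0.85 ± 0.125, 0.44 ± 0.122 and 0.47 ± 0.122 (adjusted p = 2e-06, 0.00294 and 0.00145), in 4 of 4 mice at each age. Without mouse 192 its 5m value was 0.285 and still called (adjusted p = 0.033). In SYN Fmr1 was at 0.31 ± 0.268, 0.02 ± 0.267 and 0.25 ± 0.255 (adjusted p = 0.464, 0.964 and 0.6), with groups that overlapped at each age.

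The Staufen genes stood on opposite sides of their input in TH. Stau1 was higher in SC TH, by 0.62 ± 0.076, 0.51 ± 0.073 and 0.50 ± 0.073 (adjusted p = 1.18e-07, 1.04e-06 and 9.97e-07). Stau2 was lower, with log2 differences of -0.37 ± 0.077, -0.57 ± 0.074 and -0.34 ± 0.073 (adjusted p = 0.000227, 2.35e-07 and 0.000187). In SYN Stau2 was lower in SC too, and at 5m it held 37.7, 60.0, 57.4 and 54.6 CPM in SC against 89.7, 102.6, 93.8 and 84.8 CPM in the input. Its SYN log2 differences were -0.64 ± 0.157, -0.85 ± 0.155 and -0.53 ± 0.152 (adjusted p = 0.00567, 0.000356 and 0.0226), lower in 4 of 4 mice at each age, and the 18m call ended without mouse 195, 196 or 197 (smallest value -0.37). Stau1 in SYN was called at 3w (0.43 ± 0.150, adjusted p = 0.0476), a call that 9 of 12 mice left out in turn ended (without mouse 187, 188, 189, 190, 191, 192, 194, 195 or 196). Its 5m and 18m values were 0.29 ± 0.146 and 0.30 ± 0.142 (adjusted p = 0.165 and 0.183).

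In the CPEB family the SC over input difference had different signs. In TH Cpeb1 was lower in SC, with log2 differences of -0.47 ± 0.104, -0.55 ± 0.093 and -0.41 ± 0.092 (adjusted p = 0.000442, 1.27e-05 and 0.000373), without overlap at any age. Cpeb4 was higher, by 0.48 ± 0.089, 0.24 ± 0.088 and 0.35 ± 0.087 (adjusted p = 4.81e-05, 0.0177 and 0.00112). Its 5m call ended in 5 of 24 alternatives (lowest value 0.15, highest adjusted p = 0.168), among them without mouse 192 (adjusted p = 0.082). Cpeb3 in TH overlapped with its input at all 3 ages (-0.09 ± 0.064, 0.03 ± 0.062 and 0.005 ± 0.061, adjusted p = 0.224, 0.717 and 0.95). In SYN Cpeb3 was lower in SC at 3w (-0.44 ± 0.124, adjusted p = 0.0154), and Cpeb1 and Cpeb4 were not called. The Cpeb3 call was lost in 3 of 24 alternatives (highest adjusted p = 0.092), among them without mouse 187 (adjusted p = 0.0522). With mouse as a block Cpeb4 in SYN at 5m was called (-0.43, adjusted p = 0.0395, against -0.44 and 0.0562 without the block).

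**Figure D3:**
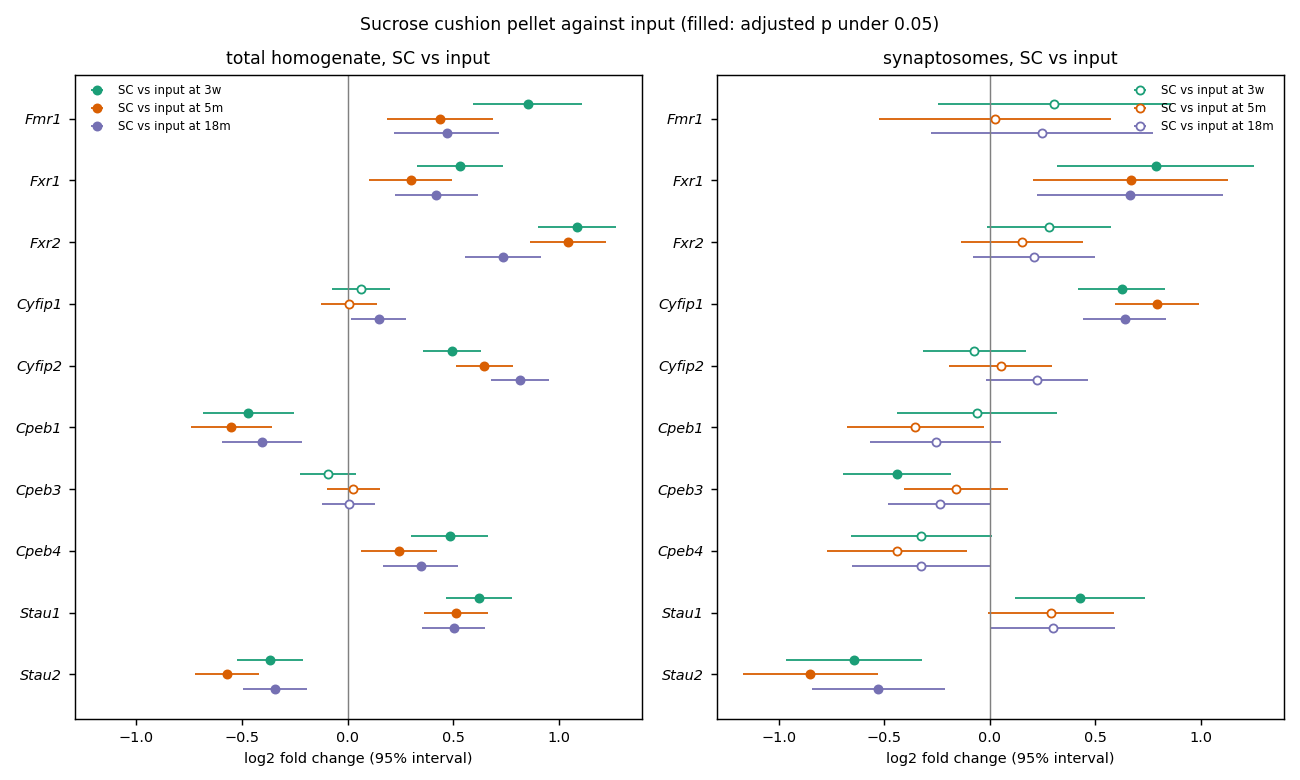
Log2 fold change of SC over input for each member in SYN and in TH at 3w, 5m and 18m, with 95% intervals; filled points have an adjusted p under 0.05. Cyfip1 is above 0 in SYN and near 0 in TH, Cyfip2 and Fxr2 are above 0 in TH, and Stau2 is below 0 in both.

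Ratios of members within one library need no scaling between libraries. After the values above had been seen, 5 such ratios were computed from the counts divided by exon length. Dividing shifts a pair by the same amount in every library, so differences between groups do not depend on it. The log2 ratio of Cyfip1 to Cyfip2 was -3.21 ± 0.169 (SD, n = 4) in SC SYN and -4.16 ± 0.148 in SC TH at 3w, -3.21 ± 0.342 and -4.41 ± 0.060 at 5m, and -3.63 ± 0.320 and -4.47 ± 0.079 at 18m. The ratio was thus 1.94-, 2.30- and 1.79-fold higher in SC SYN, higher in 4 of 4 mice and without overlap at each age. In the input libraries it overlapped between compartments (differences of -0.17, -0.21 and -0.25). The log2 ratio of Stau1 to Stau2 was 1.10, 1.16 and 0.81 higher in SC than in input within SYN and 0.99, 1.08 and 0.85 higher within TH, in 4 of 4 mice each time. Cpeb1 to Cpeb4 was lower in SYN than in TH, with differences of -0.94, -0.71 and -1.06 in SC and of -2.12, -1.57 and -1.87 in the input. The log2 ratio of Fxr1 to Fmr1 was 0.54, 0.64 and 0.38 higher in SC than in input within SYN, without overlap, and differed by -0.33, -0.12 and -0.05 within TH. Fxr2 to Fmr1 was 0.60, 0.88 and 0.24 higher in input SYN than in input TH, with groups that overlapped at 18m, and overlapped between SC SYN and SC TH at each age (0.38, 0.41 and -0.07). The pairs of genes were chosen with their values known, so these differences are a description with no test. A ratio shows unequal levels of a pair of genes and not which of them moved.

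**Figure D4:**
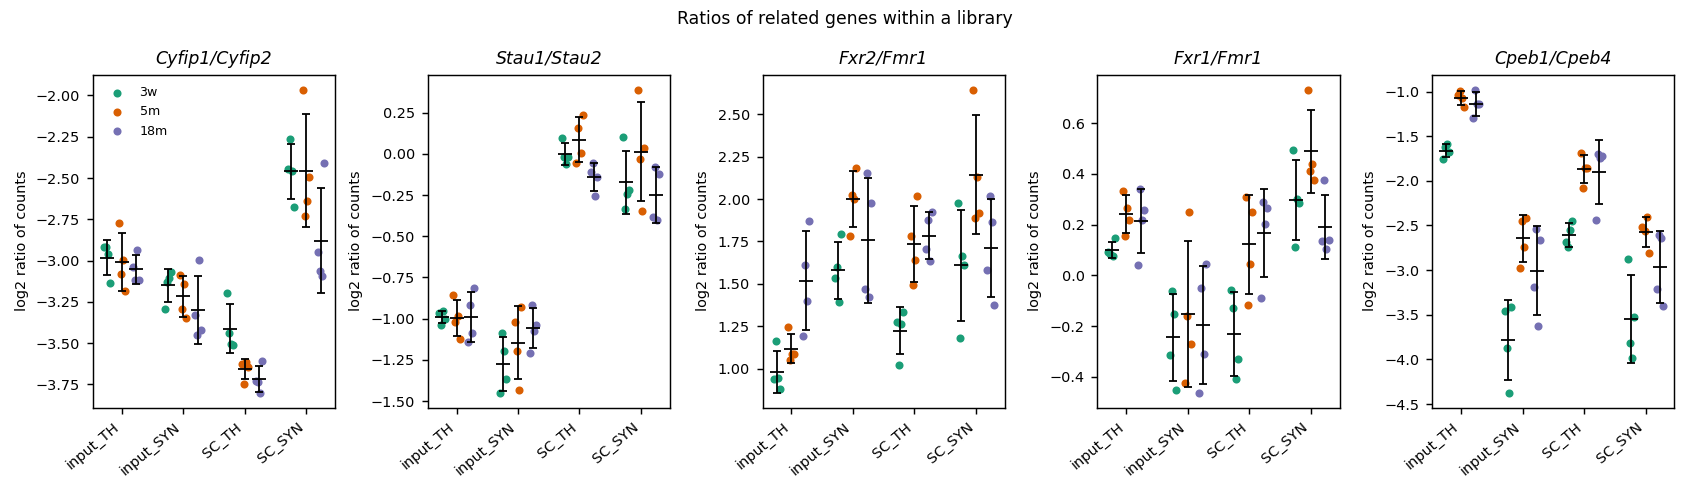
Log2 ratio of counts between member pairs within each library, by fraction and age, with a point per mouse and the mean and SD of 4 mice. Counts are not divided by exon length here, so levels differ from those in the text by a constant for each pair. The Cyfip1 to Cyfip2 ratio is highest in SC SYN at each age, and the Stau1 to Stau2 ratio is higher in both SC fractions than in both input fractions.

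The third comparison follows age within each fraction. Cpeb1 was higher at 18m than at 3w in all 4 fractions, while the other members were called in some fractions or in none. From 3w to 5m no member was called in SC SYN, 4 in SC TH (3 higher, 1 lower), 1 in input SYN and 1 in input TH, where 8.05%, 17.9%, 3.22% and 11.8% of all genes were called. In SC TH 9.48% of all genes were higher and 8.46% lower. In SC SYN 3 members had an unadjusted p under 0.05 in edgeR, as had 3723 of all 14240 genes. DESeq2 called Cpeb1 and Cpeb3 there. From 5m to 18m the 10 members held 0 calls in SC SYN, SC TH and input SYN and 2 in input TH. Of all genes 0.0140%, 2.17%, 0.139% and 15.5% were called there. At an unadjusted p under 0.05 edgeR gave 3, 1 and 2 members in SC SYN, SC TH and input SYN. Over all genes 2474 of 14240, 2878 of 16427 and 1214 of 12975 met that threshold, in the same order. DESeq2 called Cpeb4 in SC SYN at this step. From 3w to 18m, which shares its libraries with the other steps, 3, 5, 1 and 4 members were called in SC SYN, SC TH, input SYN and input TH, where 9.92%, 40.5%, 4.81% and 21.4% of all genes were called. Depth also moved with age: SC TH libraries held 3058278 to 7119395 counts at 3w, 5992223 to 13484631 at 5m and 9612408 to 15423546 at 18m. The nuclear-retained RNAs in SC TH summed to 10290 to 13620, 7372 to 10990 and 5238 to 6276 CPM at these ages. In SC SYN they moved the other way, with 842 to 1477, 1066 to 2250 and 2233 to 3493 CPM. Their means were 2364, 2685 and 3049 CPM in input SYN and 18570, 18330 and 16940 CPM in input TH. The summed level of 6 oligodendrocyte genes, for myelin proteins, was lower after 3w, with means of 9197, 3491 and 3132 CPM at 3w, 5m and 18m in SC SYN, 4015, 1903 and 2089 CPM in SC TH, 9261, 3246 and 3047 CPM in input SYN and 5628, 2206 and 2539 CPM in input TH, and 6 of 6 were called lower from 3w to 5m in each fraction. The 7 microglial genes summed to means of 579.0, 1029 and 899.8 CPM in SC SYN, 260.4, 318.9 and 344.4 CPM in SC TH, 383.7, 593.8 and 585.2 CPM in input SYN and 190.2, 187.0 and 185.1 CPM in input TH. The part of depth, nuclear RNA and these cells in the age values was not tested.

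Cpeb1 in input SYN had 7.58 to 11.6 CPM at 3w and 16.2 to 20.7 CPM at 5m, with 17.8, 19.0, 14.7 and 19.8 CPM at 18m. The 3w libraries lay below all others. The log2 change from 3w to 5m was 0.88 ± 0.184 (adjusted p = 0.0121, lost without mouse 188 at 0.0617, and 0.70 with an adjusted p of 0.132 in thinned libraries), and from 3w to 18m 0.88 ± 0.176 (adjusted p = 0.00664). In input TH it was 0.48 ± 0.069 and 0.33 ± 0.069 (adjusted p = 0.000188 and 0.00278), with 44.3, 46.2, 48.9 and 44.2 CPM at 18m and no overlap with 3w. In SC TH the change was 0.42 ± 0.118 and 0.42 ± 0.117 (adjusted p = 0.0217 and 0.00972), with groups that overlapped, and the 5m call ended without mouse 187, 188, 189 or 191 (lowest 0.37). In SC SYN it was 0.59 ± 0.174 to 5m (adjusted p = 0.0511) and 0.69 ± 0.174 to 18m (adjusted p = 0.0234), the latter lost without mouse 188, 189, 190, 196 or 197 (lowest 0.58). From 5m to 18m Cpeb1 was called in no fraction, with changes from -0.15 to 0.10.

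Cyfip2 and Cpeb3 were called higher in SC TH at 5m and 18m than at 3w, and in SC SYN at 18m. Cyfip2 in SC SYN had 590.8, 632.4, 563.1 and 683.8 CPM at 3w, 526.0, 843.9, 803.6 and 785.3 CPM at 5m and 907.7, 1019, 1074 and 741.2 CPM at 18m. All 18m libraries lay above all 3w libraries, and the 5m libraries spread over both. The change from 3w to 18m was 0.59 ± 0.151 in SC SYN (adjusted p = 0.0252, lost without mouse 187, 189, 195, 196 or 197, lowest 0.53) and 0.42 ± 0.073 in SC TH (adjusted p = 0.00037, called whichever mouse was left out). In the inputs it was 0.28 ± 0.082 in SYN and 0.08 ± 0.053 in TH (adjusted p = 0.0554 and 0.322). From 3w to 5m Cyfip2 in SC TH rose by 0.28 ± 0.073 (adjusted p = 0.0158, lost without mouse 187 at 0.23 and with the GC and length trend taken out at 0.19, adjusted p = 0.0638). Cpeb3 in SC TH rose by 0.27 ± 0.073 to 5m (adjusted p = 0.0192, lost without mouse 187, 188 or 194, lowest 0.23) and by 0.28 ± 0.072 to 18m (adjusted p = 0.00599). In SC SYN its change to 18m was 0.45 ± 0.136 (adjusted p = 0.0486), a call that 10 of 12 mice left out in turn ended (each but mouse 191 and mouse 198, lowest 0.39), and that also ended with the trend taken out (0.38, adjusted p = 0.0768). In input TH it was 0.16 ± 0.053 (adjusted p = 0.0412), ended by 9 of 12 mice (each but mouse 191, 195 and 198, lowest 0.13).

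**Figure D5:**
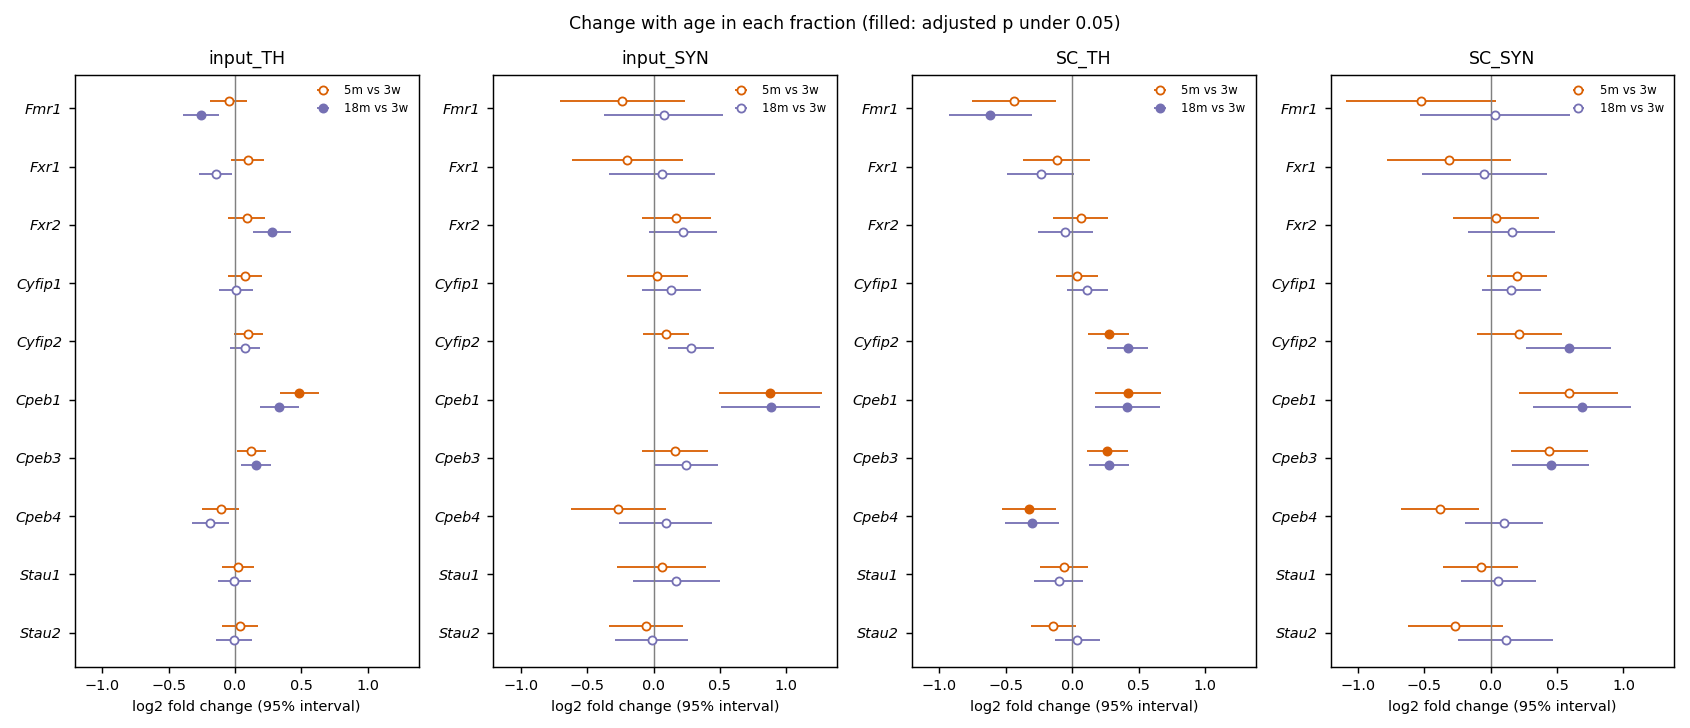
Log2 fold change of each member from 3w to 5m and from 3w to 18m in the 4 fractions, with 95% intervals; filled points have an adjusted p under 0.05, and both steps share the 3w libraries. Cpeb1 lies above 0 in all 4 fractions at both steps, and Fmr1 lies below 0 in SC TH.

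The members called lower at a later age were the 3 of lowest GC content. Fmr1 in SC TH held 65.7, 80.1, 62.6 and 64.7 CPM at 3w, 39.9, 69.9, 53.4 and 40.1 CPM at 5m and 52.2, 43.8, 42.0 and 38.2 CPM at 18m. The 18m libraries lay below all 3w libraries, with a change of -0.62 ± 0.148 (adjusted p = 0.00368), or -0.29 with an adjusted p of 0.0583 once the GC and length trend was taken out. In input TH Fmr1 fell from 3w to 18m by 0.26 ± 0.066 (adjusted p = 0.0108) and from 5m to 18m by 0.21 ± 0.066 (adjusted p = 0.0422). With that trend taken out these were -0.05 and 0.04, and the second call ended without mouse 189, 190, 192, 193, 194, 196 or 198 (smallest value -0.15). Fxr1 in input TH fell from 5m to 18m, from 44.2, 42.3, 44.8 and 44.1 CPM to 36.4, 38.9, 39.0 and 34.1 CPM (-0.24 ± 0.058, adjusted p = 0.0128), with an adjusted p of 0.999 without the trend. Cpeb4 in SC TH fell by 0.33 ± 0.097 to 5m (adjusted p = 0.0272, lost without mouse 187, 188, 190, 191 or 194) and by 0.30 ± 0.096 to 18m (adjusted p = 0.0188, lost without mouse 188 or 198). Those changes were -0.10 and 0.01 without the trend. Fxr2 in input TH rose from 3w to 18m by 0.28 ± 0.067 (adjusted p = 0.00711). That call held whichever mouse was left out. It ended in 1 of 22 alternatives, over which the lowest value was 0.16 and the highest adjusted p 0.145. Cyfip1, Stau1 and Stau2 were called between ages in no fraction, with changes between -0.27 and 0.38.

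Whether an age change differed between compartments was asked by the interaction of age and compartment. For SC and input and for both age steps 0 of the 10 members were called, where 0.0301% and 0% of all genes were called in SC and 0.0224% and 2.42% in the input for 5m against 3w and 18m against 5m. At an unadjusted p under 0.05 edgeR gave 0 and 2 members in SC and 1 and 4 in the input. Over all genes it gave 1324 and 2855 of 16630 in SC and 1437 and 3168 of 17860 in the input. DESeq2 called 1 member, Fxr1 in the input from 5m to 18m (0.50, adjusted p = 0.0426, against 0.50 ± 0.180 and 0.134 in edgeR). The 10 values ran from -0.17 to 0.20 and from -0.13 to 0.72 in SC and from -0.28 to 0.42 and from -0.14 to 0.50 in the input, with Fmr1 in SC from 5m to 18m at 0.72 ± 0.318 (adjusted p = 0.251). Likewise 0 members were called for the age change of SC over input, in SYN (0% and 0% of all genes) or in TH (2.33% and 1.78%). DESeq2 called none. At an unadjusted p under 0.05 edgeR gave 0 and 0 members in SYN and 1 and 2 in TH. Over all genes it gave 473 and 393 of 14301 in SYN and 4027 and 3137 of 18416 in TH. The member values for this age change ran from -0.29 to 0.28 and from -0.15 to 0.32 in SYN. In TH they ran from -0.41 to 0.15 and from -0.31 to 0.23. For SC at 5m against 3w, counts simulated with known changes gave 33% recovery of interactions of 1 log2 unit and 3% of those of 0.5, so differences of the size seen here would mostly be missed.

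Around the members, 5 lists of genes they work with were read the same way in SC SYN against SC TH at 5m. There 67.8% of all genes tested were called (32.1% higher, 35.8% lower), and the median over all genes was -0.09. Under library size alone 2991 of 16630 genes were higher and 9802 lower, with a median of -0.68 over all genes. With the GC and length trend taken out 5236 were higher and 6126 lower, with a median of -0.11. Of 39 tested RNA granule and transport proteins 3 were higher and 25 lower in SYN, with a median of -0.43 (1 and 36 under library size alone, 7 and 20 with the GC and length trend taken out). Pabpc1, the cytoplasmic poly(A)-binding protein, was higher (1.07 ± 0.076, adjusted p = 9.61e-12) as was Purb (0.61 ± 0.161, adjusted p = 0.00182), though Purb was at 0.02 under library size alone, and Caprin2 (-2.23 ± 0.212) and the stress granule protein gene Tia1 (-1.89 ± 0.136) were lower. Of 12 CPEB partners and polyadenylation factors 4 were higher and 6 lower (median -0.40), with Tob1, an antiproliferative factor that recruits deadenylases, at 0.61 ± 0.135 and Tacc3 at 0.71 ± 0.237, and the deadenylase subunit Cnot7 at -0.90 ± 0.234 and Cpsf4 at -0.86 ± 0.168. Under library size alone Tob1 was at 0.02 and Tacc3 at 0.12, and 0 of these 12 were higher and 9 lower. With the GC and length trend taken out Cnot7 was at -0.05 and no longer called, and 2 were higher and 4 lower. Of the 8 other genes of the WAVE complex 3 were higher and 2 lower (median 0.05). Among the WAVE proteins themselves Wasf3 (0.83 ± 0.082) and Wasf2 (0.41 ± 0.112) were higher and Wasf1 (-1.05 ± 0.115) lower, as was Abi1 (-0.36 ± 0.141). Wasf2 turned to -0.18 under library size alone and Abi1 to 0.19 with the GC and length trend taken out, and under library size alone 1 of the 8 was higher and 6 lower (median -0.53). Of 12 genes for eIF4E, its binding proteins and kinases 4 were higher and 4 lower (median 0.07), with the repressor gene Eif4ebp2 (1.01 ± 0.115) and the eIF4E kinase Mknk2 (0.98 ± 0.155) on one side and Rps6kb1 (-1.16 ± 0.231) and Eif4e2 (-0.73 ± 0.088) on the other. Under library size alone 2 of these were higher and 9 lower (median -0.52), and with the GC and length trend taken out 2 and 4 (median -0.04).

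Of 22 mRNAs known as FMRP targets 18 were higher and 1 lower in SC SYN at 5m (median 0.94), 16 and 0 at 3w and 18 and 0 at 18m. Shank1, a postsynaptic scaffold, held 4468 ± 686 CPM in SC SYN and 1139 ± 63.7 CPM in SC TH (1.99 ± 0.162), App was at 1.88 ± 0.105, and Map1b was the target that was lower (-0.50 ± 0.129). Under library size alone 14 were higher and 3 lower at 5m (median 0.36), and with the GC and length trend taken out 17 and 2. In the input 20, 20 and 19 of the targets were higher in SYN and 0 lower at 3w, 5m and 18m (medians 1.42, 1.45 and 1.41). Of 17860 genes in the input 5655, 5826 and 5878 were higher in SYN and 7024, 7164 and 7031 lower. Within SYN 1, 1 and 2 of 21 targets were higher in SC than in input and 10, 5 and 5 lower (medians -0.37, -0.17 and 0.004). In that comparison 9.04%, 9.66% and 5.88% of all genes were higher and 9.50%, 10.3% and 6.70% lower. Of all genes 32.1% were higher and 35.8% lower in SC SYN against SC TH at 5m. Camk2a, Dlg4 and Shank1 are also in the list of 5 dendritic mRNAs used as markers, whose sum was 10800 to 20470 CPM in SC SYN and 6460 to 7610 CPM in SC TH. From 3w to 5m 8.05% of all genes were called in SC SYN and 17.9% in SC TH. In SC SYN the granule list held 1 higher and 2 lower of 38 (Upf1 0.46 ± 0.125, Ybx1 -0.50 ± 0.115, Celf1 -0.38 ± 0.093) and the FMRP targets 4 higher and 3 lower of 21, among them Shank1 (1.02 ± 0.199), Shank3 (1.01 ± 0.208), Grin2b (-0.50 ± 0.112) and Nlgn3 (-0.48 ± 0.113). The eIF4E list held 2 higher (Mknk2 0.67 ± 0.194 and Eif4ebp2 0.49 ± 0.127) and the CPEB partners 1 (Tob2 0.58 ± 0.158). The WAVE list held 0 calls in SC SYN and in SC TH at this step. In SC TH the FMRP targets held 5 higher and 3 lower of 22, among them Tsc2 (0.41 ± 0.113), Map1b (0.31 ± 0.072) and Nlgn3 (-0.23 ± 0.074), and the granule list 2 and 2 of 39, with Upf1 (0.49 ± 0.093) and Khdrbs1 (0.27 ± 0.068) higher and Purb (-0.43 ± 0.092) and Larp4b (-0.30 ± 0.097) lower. The eIF4E list held 2 higher there, Mknk2 (0.32 ± 0.105) and Mtor (0.24 ± 0.075).

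The genes most like each member over the 48 libraries were read from Pearson's r of log2 CPM among 10621 genes, as a description in which libraries share mice, fraction and scaling. Cpeb1 was most like Zfp398 (r = 0.964) and Kdm3a (0.963), and Fxr2 most like Pkm (0.963) and Ppp1r11 (0.953). Cpeb3 was most like Cdk13 (0.941) and Ambra1 (0.937), Fmr1 most like Denr (0.935) and Nap1l1 (0.929), and Fxr1 most like Hnrnpa2b1 (0.924) and Rnf20 (0.921). For the Staufen genes the nearest were Anp32a (0.921) and Dnaja1 (0.917) for Stau1 and Arl5a (0.911) and Zdhhc21 (0.889) for Stau2. The CYFIP genes had different neighbours, Acadvl (0.896) and Gstm5 (0.882) for Cyfip1 and Sik3 (0.887) and Pcbp2 (0.886) for Cyfip2, and Cpeb4 was nearest to Taok1 (0.889) and Nbea (0.880). The other members were left out as neighbours.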

How the data were processed

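RNA-seq was analysed in 48 cortical libraries of 12 mice. The authors demultiplexed with bcl2fastq 2.20.0.422, aligned to GRCm38 with TopHat2 2.1 and ran featureCounts in its unstranded mode, and the deposited values are raw counts per gene. Whether reads were deduplicated by UMI is not given in the sources used here, nor is which of the sequencing runs a library came from. Gene symbols came from GENCODE M21, which matched 48144 of 48526 identifiers (0.0596% of counts lay on the rest). Counts were fitted across all genes in R 4.3.3 with edgeR 4.0.16 (TMM, filterByExpr, quasi-likelihood test, Benjamini-Hochberg over all genes tested, threshold 0.05), and p-values are two-sided. Each compartment or fraction comparison was fitted on its 24 libraries and each age comparison on the 12 libraries of one fraction. On counts simulated with 200 changed genes, changes of 1 log2 unit were recovered in 79% of genes for SC SYN against SC TH at 5m, 64% for 5m against 3w in SC SYN and 82% for SC against input TH at 5m, and changes of 0.5 in 26%, 4% and 50%. Replicates were separate mice, and the variance between libraries of a group was 1.98 to 32.2 times the counting error over 72 pairs. Libraries of one mouse share its number, so the pairing is by animal, and their deviations from their own group's mean correlated with a median r of -0.01 to 0.11 over 6 pairs of fractions. Alternatives were DESeq2 1.42.0, other size factors and filters, a GC and length trend taken out per library, thinning, a mouse block and leaving out each mouse.

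The members and lists were chosen with earlier results of these data known. The members are named in the comparisons of compartments, fractions and ages, and the interactions are given by the range over the 10 with the members named there. From each list at most 2 genes per direction with the largest called change are named, for SC SYN against SC TH at 5m and for 5m against 3w in SC, and for each member the 2 genes of highest r among genes with a mean of at least 50 counts. Exons of Fxr1, Cyfip1, Cpeb3 and Fmr1 overlap other genes over 178, 1489, 116 and 72 bases, and such reads cannot be assigned by strand.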

Additional observations from a re-analysis of the deposited data

Results flagged for a closer look

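In 4 of 120 groups of 4 libraries one library stood apart from the other 3 by Dixon's test, which by chance alone gives about 1 in 20. Cyfip2 in input TH at 5m was 574.0 CPM in mouse 191 against 663.5 to 676.9 CPM in the others. Stau2 in input TH at 5m was 77.05 CPM in the same mouse against 94.61 to 96.69 CPM. Cpeb1 in SC SYN at 5m was 16.86 CPM in mouse 193 against 13.24 to 13.7 CPM. Stau1 in input SYN at 5m was 34.54 CPM (77 counts) in mouse 193 against 44.18 to 44.64 CPM. All 4 are 5m groups, and their causes were not tested.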

How the results depend on the processing

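Of 320 member values over all comparisons 86 were called, and 43 of these calls were changed by no alternative. Some calls given above as ending without a mouse also ended in other alternatives. Over 7360 alternative values, 7030 kept their direction and their side of the threshold. The cause of a change was not tested except where named. Counts of member calls moved by over 1.5 times as follows. SYN against TH in SC, summed over the 3 ages, went from 16 to 25 under library size alone. There 12141, 12793 and 11989 of 16630 genes were called at 3w, 5m and 18m. SYN against TH in the input, summed likewise, went from 13 to 25 under library size alone. There 14293, 14571 and 14545 of 17860 genes were called. The member count was 22 with at least 10 counts required in every library, where 7689, 7871 and 7637 of 9726 genes were called. It was 22 with the GC and length trend removed, where 12491, 12626 and 13131 of 17860 were called. With that trend removed beside the mouse block it was also 22, where 12154, 12364 and 12831 of 17860 were called. SC against input in SYN went from 11 to 7 in thinned libraries, which hold fewer counts. There 1833, 1848 and 1024 of 11766 genes were called at 3w, 5m and 18m. The 18m against 5m calls went from 2 to 1 with only the groups compared in the fit, with the trend removed, and in thinned libraries, and the 0 calls for an age change differing between SYN and TH became 1 in DESeq2.

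Leaving out each mouse in turn gave 14 to 17 calls for SYN against TH in SC, 12 to 14 in the input, 8 to 12 for SC against input in SYN, 23 to 25 in TH, 2 to 9 for 5m against 3w (6 with all mice, 2 without mouse 188), 1 to 3 for 18m against 5m (2 with all mice, 1 without mouse 189, 190, 192, 193, 194, 196 or 198), 9 to 14 for 18m against 3w, 0 to 0 for the age change SYN against TH and 0 to 1 for that of SC over input (1 without mouse 191 or mouse 192).

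With mouse as a replicate block the counts were 17, 14, 12 and 25 for SYN against TH in SC and input and SC against input in SYN and TH, and 0 and 0 for the age changes. The pairing newly called 3 of 200 values, Fmr1 in SC SYN against TH at 3w (-0.56, adjusted p = 0.0177), Fmr1 in the input at 18m (0.29, adjusted p = 0.0411) and Cpeb4 in SYN SC against input at 5m (-0.43, adjusted p = 0.0395), and changed no other call.

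Directions turned in these values. With the GC and length trend removed, SYN against TH in SC became 0.71 at 3w and 0.51 at 5m for Fxr1, 0.25, 0.19 and 0.23 for Cpeb4 at the 3 ages, 0.15 for Fmr1 at 5m and 0.23 for Stau2 at 3w. In the input it became 0.95 and 0.88 for Fmr1 at 3w and 5m and 0.65, 0.46 and 0.58 for Fxr1. Cpeb4 became 0.009 in SC TH for 18m against 3w and 0.17 in input TH for 18m against 5m, where Fmr1 became 0.042. With the mouse block beside the trend the SC values were 0.71 and 0.50 for Fxr1, 0.25, 0.19 and 0.24 for Cpeb4 and 0.15 for Fmr1, and the input values 0.95 and 0.87 for Fmr1 and 0.64, 0.46 and 0.58 for Fxr1. Under library size alone SYN against TH became -0.49 for Fxr2 in SC at 18m. In the input it became -0.019 and -0.043 for Fxr2 at 3w and 18m, -0.47, -0.53 and -0.23 for Cyfip2, -0.36, -0.56 and -0.047 for Cpeb4, -0.47, -0.62 and -0.46 for Stau2, and at 18m -0.49 for Cyfip1 and -0.54 for Stau1. With at least 10 counts in every library the input values were -0.18 and -0.19 for Cyfip2 at 3w and 5m, -0.28 for Stau2 at 5m, and at 18m -0.21 for Cyfip1 and -0.26 for Stau1. Thinned, Cyfip1 in TH SC against input at 18m was -0.011. The ratios added after seeing the data were also computed with a pseudocount of 2 and without each mouse.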
